A study of Mus musculus with 4 samples.

Results

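The 9 genes described here encode transcription factors of the ureteric bud and collecting duct: Gata3, Pax2, Pax8, Emx1, Emx2, Lhx1, Tfcp2l1, Grhl2 and Elf5. They were found as all non-control probes whose accession carried one of these symbols in mouse RefSeq. This gave 13 probes on 31 spots, out of 41174 probes on 43379 non-control spots, and 9 of 16358 gene symbols on the array. All 9 genes had a probe well above background in Cy5 and entered the test, among 15987 genes. Of these, 10435 carried a gene symbol, and the rest, known only by their array identifier, are also counted as genes below.

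The arrays compared green fluorescent cells sorted from newborn kidneys at postnatal day 1. Knockout cells came from HoxB7CreEGFP+; PRR flox/flox mice and control cells from CreEGFP+ PRR+/+ mice, so both genotypes carried the transgene. PRR is the (pro)renin receptor, encoded by Atp6ap2, and its protein also binds the vacuolar proton pump. The HoxB7 promoter is active in the Wolffian duct and ureteric lineage, and the deletion was therefore limited to cells in which it had driven Cre. RNA was taken from pools. The source names number the wild-type pools 1 and 2 but not the knockout pools, which only the sample titles number. The KO_vs_WT arrays had knockout RNA in Cy5 and a wild-type pool in Cy3, pool 1 on replicate 1 and pool 2 on replicate 2. On WT_self replicates 1 and 2 a single wild-type pool, 1 or 2, carried both dyes.

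Groups follow the source name given for each channel. The sample titles exchange the genotypes, and the descriptions name the other wild-type pool for each self array. If the titles were right, every knockout-minus-wild-type direction below would turn. If the descriptions were right, pools 1 and 2 would exchange on the self arrays, and with them the differences from each pool and between pools, and the dye correction on the shared array would use the other pool. Cy3 of KO_vs_WT replicate 2, labelled pool 2, differed from Cy3 of the self array taken here as pool 2 by a median of 0.0508 (absolute log2, 11055 genes) and from the other by 0.155. Cy3 of KO_vs_WT replicate 1 was empty, with 28 of 41174 probes well above background, against 14936 to 18574 in Cy3 of the other arrays and 18424 to 22713 in Cy5. The targeted gene Atp6ap2 had log2 Cy5 levels of 8.08 and 7.72 in knockout RNA and 8.37 and 8.51 in wild-type RNA. It was lower on both knockout arrays, by 0.54 ± 0.17 (SE, 2 arrays against 2, limma adjusted p = 0.800), and where its probe lies relative to the deleted exons was not tested. Hoxb7, which marks the ureteric lineage, had levels of 11.36 and 11.50 in knockout and 11.67 and 11.16 in wild-type RNA. Six2, the defining marker of nephron progenitors, was not well above background on any array. However, 5 of the 8 listed nephron progenitor genes were measured. Their mean levels were 7.24 and 7.13 in knockout and 7.38 and 7.21 in wild-type RNA.

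The ureteric bud grows out of the Wolffian duct and branches to form the whole collecting duct tree. Pax2 and Pax8 act together to establish the nephric lineage, and Gata3 and Lhx1 act with them in the Wolffian duct. Grhl2, Tfcp2l1 and Elf5 are expressed in the duct epithelium, which matures into a tight tube of principal and intercalated cells.

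Promoter sequences from RefSeq (GRCm38.p6) matched 8 of the 9 genes, in 11 start-site windows, and Grhl2 had none. Shown are the 150 bases before the start for the genes on which the results turn. Lhx1 is the only one whose knockout levels both lay below both wild-type levels. Emx1 lay between the wild-type pools, and Gata3 and Elf5 lay furthest below pool 1 in pool 2 (−0.64 and −0.69 in Cy5). Each runs 5′ to 3′ on the gene's own strand, and the capitals mark a CCAAT box on either strand (CCAAT or its complement ATTGG). The windows lie at chr11:84525535-84525684 (minus strand) for Lhx1, chr6:85187781-85187930 (plus) for Emx1 and chr2:9878601-9878750 (minus) for Gata3. For Elf5 they lie at chr2:103411948-103412097 and chr2:103423918-103424067 (both plus).
Lhx1: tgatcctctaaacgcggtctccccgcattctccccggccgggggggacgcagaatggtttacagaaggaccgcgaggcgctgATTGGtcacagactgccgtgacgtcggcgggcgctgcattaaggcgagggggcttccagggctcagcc
Emx1: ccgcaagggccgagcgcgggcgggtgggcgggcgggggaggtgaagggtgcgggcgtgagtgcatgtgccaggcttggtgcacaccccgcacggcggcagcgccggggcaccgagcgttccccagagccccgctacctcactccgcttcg
Gata3: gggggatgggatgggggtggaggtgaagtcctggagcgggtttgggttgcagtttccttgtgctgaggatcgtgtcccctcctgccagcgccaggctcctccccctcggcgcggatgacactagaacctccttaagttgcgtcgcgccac
Elf5, first start: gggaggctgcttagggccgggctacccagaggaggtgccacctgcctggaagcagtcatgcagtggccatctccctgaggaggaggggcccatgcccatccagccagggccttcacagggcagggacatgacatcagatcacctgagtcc
Elf5, second start: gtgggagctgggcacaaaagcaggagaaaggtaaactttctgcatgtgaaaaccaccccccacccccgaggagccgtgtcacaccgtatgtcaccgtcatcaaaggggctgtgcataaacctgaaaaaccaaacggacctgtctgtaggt

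The windows differed in base composition. Over the 250 bases before the start, Emx1 had 75.6% G and C with 30 CpG dinucleotides, Gata3 had 70.0% with 19, and Lhx1 had 64.8% with 26. The Elf5 starts had 62.8% with 2 CpG and 56.8% with 8, while the median of all 32851 windows was 52.4% with 6. Gata3 and Elf5, both lowest in pool 2 in Cy5, had unlike promoter windows in this respect, and a relation between the 2 genes was not tested. Short motifs were searched over these 250 bases on both strands. The core of GATA factor sites, AGATAA, the homeodomain core, TAATTA, and the grainyhead core, AACCGGTT, matched none of the 11 windows, and matched 9.99%, 4.84% and 0.116% of all windows. The ETS core, CCGGAA, matched Gata3, before the stretch printed above, and 1 Pax2 start, and 12.03% of all windows. CCAAT matched Pax8, Emx2 and Lhx1, and 33.9% of all windows. The core promoter motif TATAAA matched Tfcp2l1 alone among the 9 genes, at −28 to −23 from its start, and 12.4% of all windows.

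None of the 9 genes passed the test between knockout and wild type in Cy5. Each level below is a log2 Cy5 intensity after background correction and quantile normalization, for knockout replicates 1 and 2, then wild-type pools 1 and 2. A difference of 1 is 2-fold. Probes differ in brightness, so levels of different genes are not set against each other. At an adjusted p of 0.05, limma called 0% of the 15987 genes, and 4.19% of them had an unadjusted p under 0.05, as did 0 of the 9. Both knockout arrays lay above both wild-type arrays in 2 of the 9 genes (22.4% of all genes) and below both in 1 of the 9 (17.2% of all genes). These counts say nothing particular to the 9 genes. In bulk RNA, fewer cells of a type and less RNA per cell cannot be told apart.

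**Figure D1:**
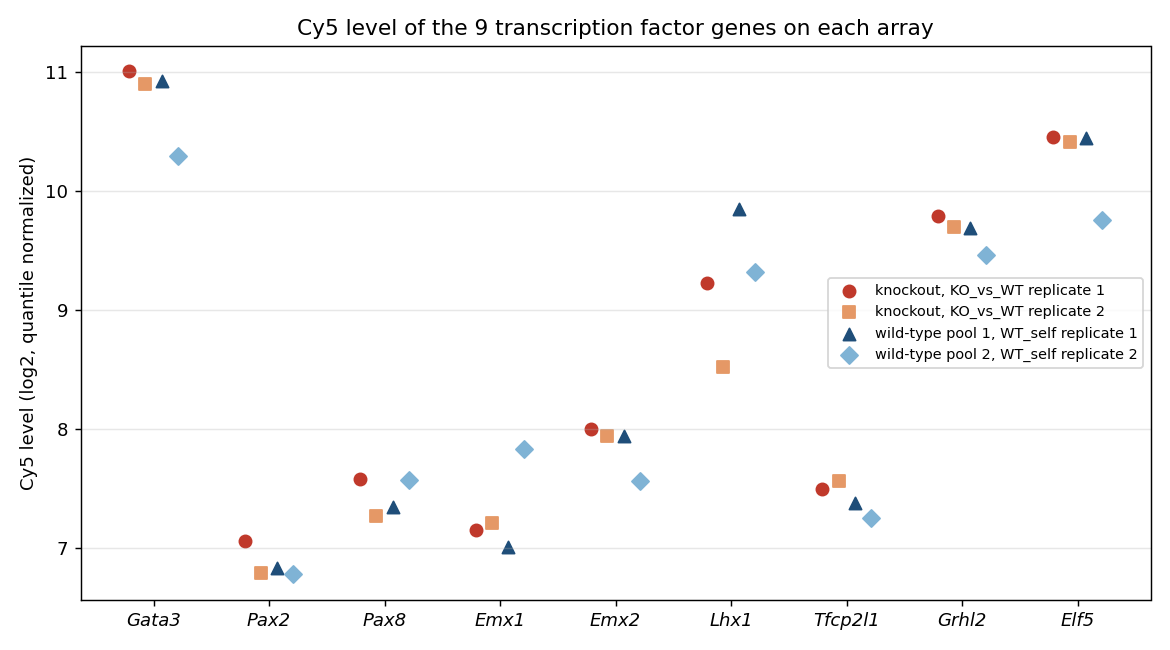
Log2 Cy5 level (vertical axis, after quantile normalization) of the 9 genes (horizontal axis) on each of the 4 arrays, with a point for each array. Lhx1 is lower in knockout (9.23 and 8.52) than in wild-type RNA (9.85 and 9.32), and in Gata3 and Elf5 only pool 2 stands apart.

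Lhx1, a LIM homeodomain factor needed to form the Wolffian duct and also present in the earliest nephrons, had the largest difference of the 9. Its levels were 9.23 and 8.52 in knockout RNA and 9.85 and 9.32 in wild-type RNA. The genotypes did not overlap, but knockout replicate 1 lay only 0.095 below pool 2. The difference was −0.71 ± 0.31 (SE; 95% interval −1.51 to 0.085), or 0.610 of the wild-type level, with a limma adjusted p of 0.800 (unadjusted limma p 0.0697). Of all genes, 1.55% had a difference as low or lower. The knockout arrays themselves differed by 0.71, and only 0.288% of genes had knockout arrays at least as far apart. Leaving out a knockout array gave −1.07 without replicate 1 and −0.36 without replicate 2.

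The array carries Lhx1 on 10 repeat spots, which read the same labelled RNA and are not replicates of a genotype. In Cy5 they ran from 8.90 to 9.52 on knockout replicate 1, from 8.28 to 8.71 on knockout replicate 2, from 9.60 to 10.01 in pool 1 (9 spots used) and from 9.02 to 9.48 in pool 2. The spots of knockout replicate 1 thus overlapped those of pool 2, while the spots of knockout replicate 2 lay below those of every other array. On the array that held both knockout RNA and pool 2, all 10 spots had a negative log2 ratio, from −0.829 to −0.506. The same spots gave 0.0058 to 0.25 on the array with pool 2 in both dyes.

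**Figure D2:**
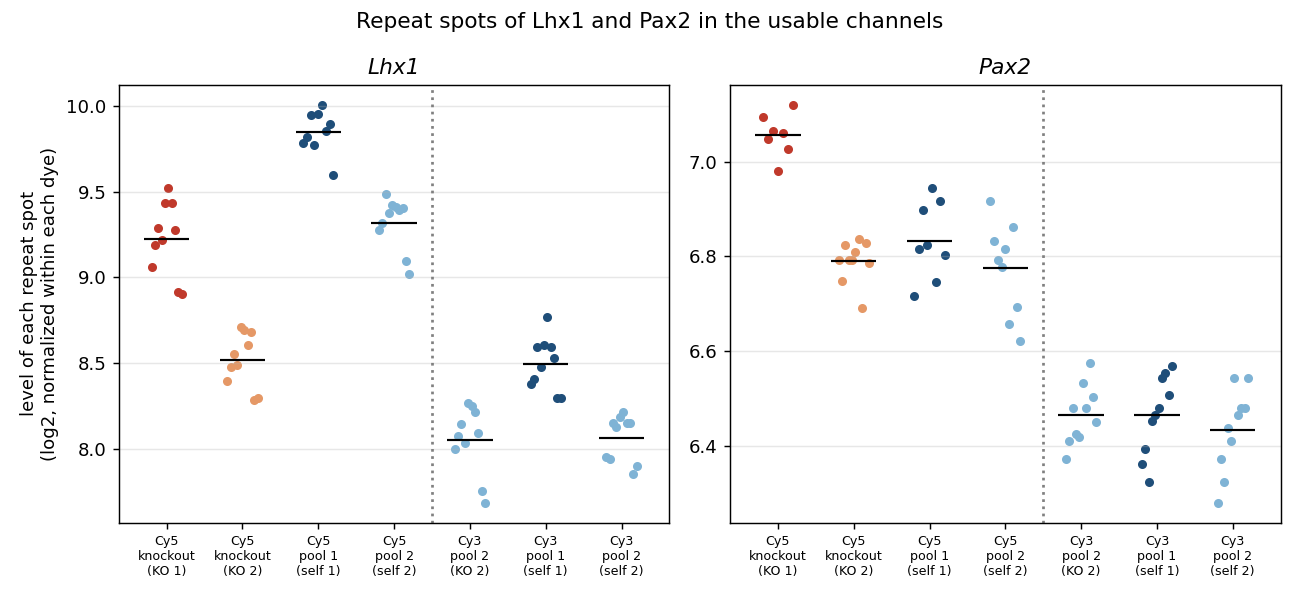
Log2 level of each repeat spot (points) of Lhx1 (left) and Pax2 (right) in the 7 usable channels, with the mean as a line. KO 1 and KO 2 are the KO_vs_WT arrays, self 1 and self 2 the WT_self arrays, and levels left and right of the dotted line were normalized apart and are not comparable. Lhx1 spots of knockout replicate 2 (8.28 to 8.71) lie below all other Cy5 spots of that gene.

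Pax2 and Pax8, paired-box factors at the top of the nephric programme, differed little in the main processing. Pax2 levels were 7.06 and 6.79 in knockout and 6.83 and 6.77 in wild-type RNA, or 0.12 ± 0.14 higher (SE, limma adjusted p = 0.840). The genotypes overlapped, and only knockout replicate 1 stood above the other arrays. Pax2 signal in Cy5 was low, at 92.3, 25.8, 30.1 and 18.2 after background subtraction, though all 10 spots were well above background. With the scanner software's processed signal the Pax2 difference became 0.55. Of the 10 repeat spots of Pax2, 7, 10, 8 and 9 were used in Cy5 on these arrays, with SDs of 0.043 to 0.098. In Cy3 it was not well above background, with at most 4 of 10 spots so flagged on any array. Pax8 levels were 7.58 and 7.27 in knockout and 7.34 and 7.57 in wild-type RNA, which is −0.033 ± 0.16 (SE, limma adjusted p = 0.961). Each genotype thus held a high and a low Pax8 array.

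Gata3, a zinc finger factor that acts upstream of the receptor gene Ret in the duct, had levels of 11.01 and 10.90 in knockout and 10.93 and 10.29 in wild-type RNA. Knockout RNA and pool 1 lay together, and pool 2 was the low array. The difference was 0.35 ± 0.24 (SE, limma adjusted p = 0.800). Elf5, an ETS factor of principal cells, showed the same order. Its levels were 10.45 and 10.41 in knockout and 10.45 and 9.76 in wild-type RNA, or 0.33 ± 0.25 higher (SE, limma adjusted p = 0.800). For both genes the genotypes overlapped, because pool 1 lay within 0.1 of each knockout array.

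Emx2, a homeobox factor of the ureteric bud, had levels of 8.001 and 7.94 in knockout and 7.94 and 7.56 in wild-type RNA. Pool 2 was again the low array, and the difference was 0.22 ± 0.16 (SE, limma adjusted p = 0.800). A second, dimmer Emx2 probe gave −0.065, with pool 2 as its high array. Emx1, the paralog best known from the cerebral cortex, had levels of 7.14 and 7.20 in knockout and 7.01 and 7.83 in wild-type RNA. Its pool 2 array was high, the reverse of the main Emx2 probe, and the difference was −0.25 ± 0.29 (SE, limma adjusted p = 0.840). Both knockout arrays lay above pool 1 and below pool 2 in Emx1 alone among the 9, as in 11.6% of all genes. Counted in either order of the pools, 28% of all genes had both knockout arrays between them. The paralogs could therefore not be ranked in a common direction.

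Tfcp2l1 and Grhl2 belong to the grainyhead-like and CP2 superfamily. Tfcp2l1 patterns principal and intercalated cells, and Grhl2 controls junction genes of the duct epithelium. Tfcp2l1 levels were 7.50 and 7.56 in knockout and 7.38 and 7.25 in wild-type RNA, a difference of 0.21 ± 0.12 (SE, 95% interval −0.091 to 0.52, limma adjusted p = 0.800). Both knockout arrays lay above both pools. Its other probe was well above background only on knockout replicate 1 and was not tested. Grhl2 levels were 9.79 and 9.69 in knockout and 9.69 and 9.46 in wild-type RNA, or 0.16 ± 0.13 higher (SE, limma adjusted p = 0.804). Knockout replicate 2 exceeded pool 1 by only 0.0043. A second Grhl2 probe gave −0.030, with pool 2 high and not low, and its remaining probe was not well above background on any array.

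Set against each wild-type pool separately, the 9 genes gave different pictures. Only 1 Cy5 array holds each pool, so a test of these differences must assume that it varies like the knockout arrays, and its results are given in the next paragraph. Against pool 1 the knockout mean lay within 0.2 for 8 of the 9 genes (75.8% of all genes did), from −0.015 for Elf5 to 0.17 for Emx1. Lhx1 was the exception at −0.98, which is 0.508 of the pool 1 level. It was lower on both knockout arrays, by 0.62 on replicate 1 and 1.33 on replicate 2. Against pool 2 the knockout mean was higher by 0.67 for Gata3 and for Elf5, 0.41 for Emx2, 0.28 for Tfcp2l1, 0.27 for Grhl2 and 0.15 for Pax2. It was lower by 0.15 for Pax8, 0.45 for Lhx1 and 0.66 for Emx1. No gene of the 9 passed 2-fold the same way on both knockout arrays against pool 1 (0.1% of all genes did) or against pool 2 (3.39%). With the scanner software's processed signal Gata3 and Elf5 were lower than pool 1 by 0.70 and 0.64. They were lower than pool 2 by 0.24 and 0.083. Against pools 1 and 2, Grhl2 was lower by 0.39 and 0.27 and Pax2 higher by 0.39 and 0.72. Under the processed signal 2 of the 9 genes, Pax8 and Tfcp2l1, lay within 0.2 of pool 1. These means include KO_vs_WT replicate 1, where the correction behind that signal rests on an empty Cy3 channel. With 75th percentile scaling Pax2 was lower than pool 2 by 0.28.

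The knockout mean was closer to pool 1 than to pool 2 for 8 of the 9 genes, all except Lhx1, as it was for 68.3% of all genes. With the processed signal, limited as above on KO_vs_WT replicate 1, it was closer to pool 1 for 5 of the 9. Without WT_self replicate 1, which leaves pool 2 as the only wild-type array and assumes that it varies like the knockout arrays, limma called 4 of the 9 genes and 27% of 16547 genes. These were Gata3 (0.67, limma adjusted p = 0.00667), Elf5 (0.67, 0.00540) and Emx2 (0.41, 0.0291), all higher, and Emx1 (−0.66, 0.00601), which was lower. Lhx1 gave −0.45 (0.252) there, and −0.98 (limma adjusted p = 0.264) against pool 1 without WT_self replicate 2. Without any array other than WT_self replicate 1, 0 of the 9 passed.

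**Figure D3:**
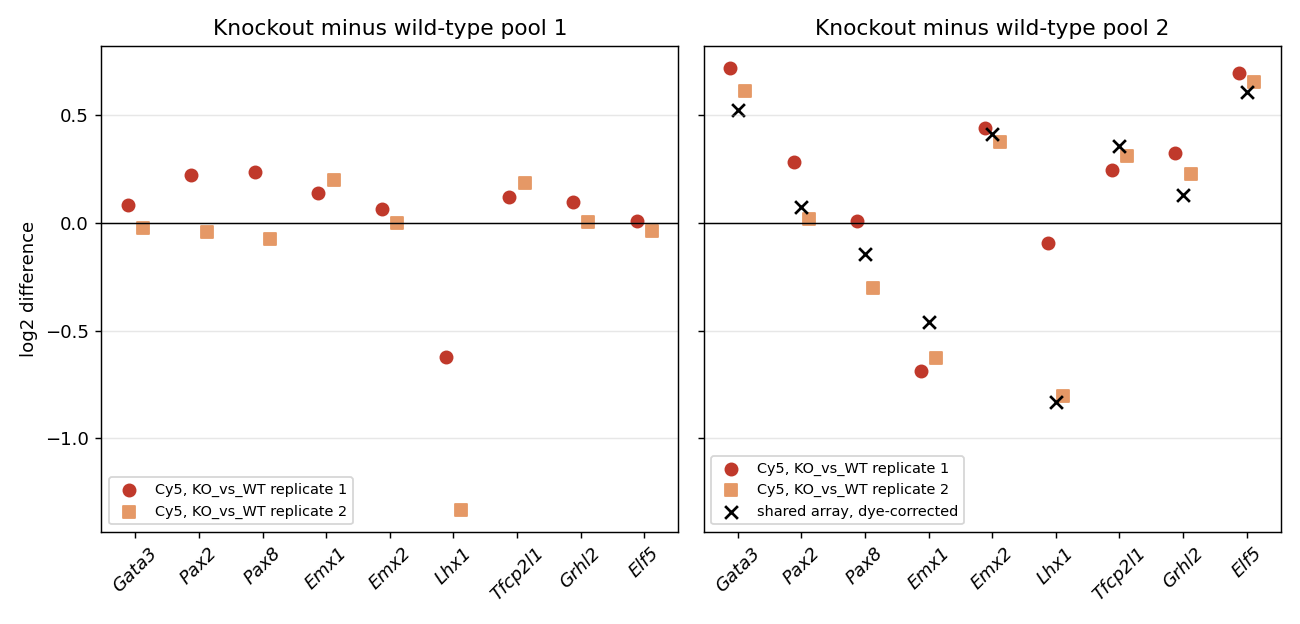
Log2 difference between knockout RNA and wild-type pool 1 (left) or pool 2 (right) for the 9 genes, for each knockout array in Cy5 and, on the right, for the array that carried both RNAs (crosses). Against pool 1 all genes but Lhx1 lie near 0, and against pool 2 Gata3, Elf5 and Emx2 lie above 0 and Emx1 and Lhx1 below.

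The array with knockout RNA in Cy5 and pool 2 in Cy3 gave a comparison within an array. Its log2 ratio was corrected for each probe's dye effect by subtracting that of the array with pool 2 in both dyes. The corrected difference was 0.61 for Elf5, 0.52 for Gata3, 0.41 for Emx2, 0.36 for Tfcp2l1, 0.13 for Grhl2 and 0.072 for Pax2. It was −0.14 for Pax8, −0.46 for Emx1 and −0.83 for Lhx1, or 0.562 of the pool 2 level. Each sign matched that of the Cy5 difference from pool 2, with which this ratio shares KO_vs_WT replicate 2 and WT_self replicate 2. None of the 9 passed 2-fold, against 3.97% of 13923 genes. The second probes of Emx2 and Grhl2 gave −0.27 and −0.25 here, opposite in sign to the main probes.

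The wild-type pools differed from each other in these genes, and here both dyes gave a value. In Cy5 pool 2 minus pool 1 was −0.69 for Elf5, −0.64 for Gata3, −0.53 for Lhx1, −0.37 for Emx2, −0.22 for Grhl2 and −0.13 for Tfcp2l1. In Cy3, with pool 2 averaged over its 2 channels, the same genes gave −0.73, −0.61, −0.44, −0.12, −0.28 and −0.029. Pool 2 was higher for Emx1, by 0.83 in Cy5 and 0.47 in Cy3, and for Pax8, by 0.22 and 0.049. Of the 8 genes well above background in Cy3 on the 3 arrays with signal, 6 were thus lower and 2 higher in pool 2 in both dyes (47.1% and 36.3% of 11055 genes), and these directions held under each of the 3 scalings tried. These are the main probes, and the second probes were higher in pool 2 in both dyes, by 0.32 and 0.11 for Emx2 and by 0.24 and 0.16 for Grhl2. None of the 9 genes passed 2-fold in both dyes, against 2.45% of those 11055 genes, but with the processed signal Emx1 did, at 1.71 in Cy5 and 1.39 in Cy3.

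The Cy3 levels behind these values were 8.90, 9.49 and 8.84 for Gata3 (KO_vs_WT replicate 2 with pool 2, WT_self replicate 1 with pool 1, WT_self replicate 2 with pool 2). For Elf5 they were 8.47, 9.20 and 8.47, and for Lhx1 8.05, 8.49 and 8.06. For Emx1 they were 6.92, 6.48 and 6.99. Its 1 spot was well above background in each, but was dim in pool 1, at 16.6 after background subtraction against 52.6 and 65.3. In each of these genes both pool 2 channels lay close together and apart from the pool 1 channel. The technical repeat of pool 2 differed by at most 0.0644 over the 8 genes (median 0.0188, and 0.0508 over all genes). The spread between pool 2 channels was thus smaller than the gap between the pools in all of these genes except Pax8 (−0.060 against 0.049). For Tfcp2l1 the values were −0.011 and −0.029.

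**Figure D4:**
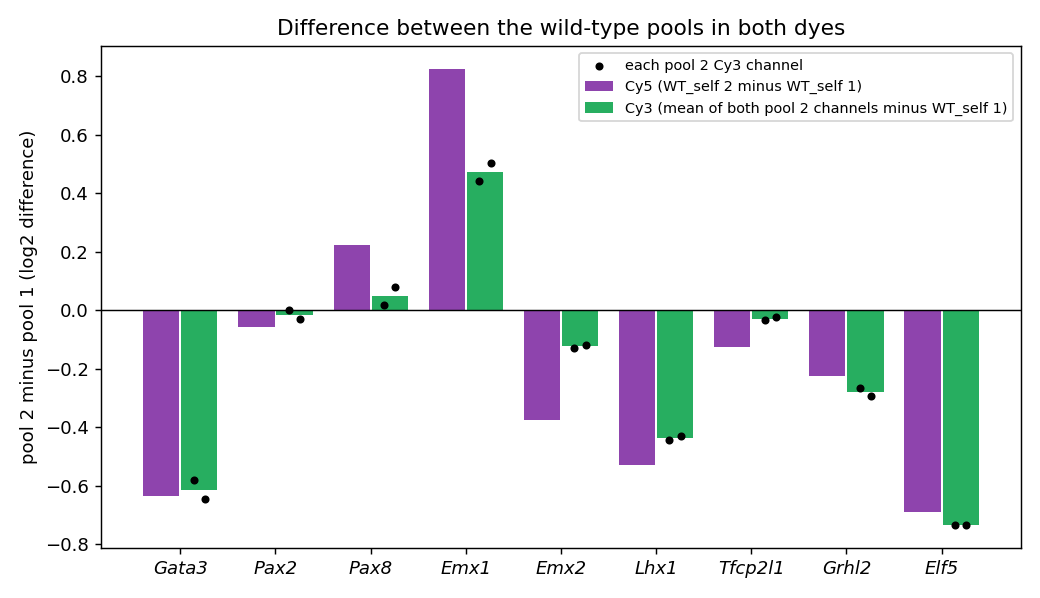
Pool 2 minus pool 1 (log2 difference, vertical axis) for the 9 genes in Cy5 and in Cy3, as bars from 0; dots give each of the pool 2 channels in Cy3. Gata3, Elf5, Lhx1 and the main Grhl2 probe are lower in pool 2 in both dyes by 0.22 or more, and Emx1 is higher by 0.83 and 0.47.

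Markers of other kidney cells also differed between the pools. The 6 of 12 proximal tubule genes that were measured had mean Cy5 levels of 8.68 and 8.11 in knockout RNA, 9.16 in pool 1 and 11.67 in pool 2. Their median pool 2 minus pool 1 was 2.57 in Cy5 and 2.50 in Cy3, and 6 of 6 were higher in pool 2 in both dyes. The 7 measured loop and distal tubule genes had a median of 1.18 and the 8 urothelial genes 0.87 in Cy5, while the 7 stromal genes had −0.83 and the 3 erythroid genes −0.92. Nphs1, a defining marker of podocytes, was not well above background on any array. Only 1 of the 5 listed podocyte genes was measured, with −0.58 in Cy5. The part of these other cell types in the differences of the 9 genes between pools, and between knockout and pool 2, was not tested. The 10 pan-epithelial genes had a median of −0.091 and Hoxb7 had −0.52.

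The profile of each gene over the 7 usable channels was compared with 8276 named genes by the root mean square distance of log2 levels, each centred on its own mean. Channels of a dye share a scale, which shapes all of these profiles. Nearest were Fam76b (0.031) and Gprasp1 (0.039) for Gata3, Klhl17 (0.035) and Rpgrip1 (0.036) for Elf5, Tmem176b (0.038) and Ptk7 (0.055) for Emx1, and Cyth1 (0.025) and Cyb561 (0.034) for Emx2. For Tfcp2l1 they were Chst11 (0.016) and B4galt1 (0.033), for Grhl2 Eif3c (0.020) and Zfp91 (0.030), and for Pax8 Mrpl24 (0.042). Lhx1 had the most distant nearest genes, Cyp26b1 (0.103) and Fxyd6 (0.106). Pax2 was left out because it was not above background in Cy3.

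Other transcription factors of the lineage were listed separately, and 20 of 22 were measured. None passed the test, and 11 differences were positive and 9 negative, against 8839 and 7148 of all 15987 genes. The median of the listed factors was 0.019, against 0.16 for the 9 genes and 0.025 for all genes. Of the 20 measured factors, 4 had an unadjusted limma p under 0.05 (4.19% of all genes did), all with a limma adjusted p of 0.800. Klf5, an epithelial zinc finger factor, was higher by 0.49 ± 0.11 (SE), with 8.71 and 8.77 in knockout and 8.27 and 8.22 in wild-type RNA. Elf3, an epithelial relative of Elf5, was higher by 0.54 ± 0.17 (SE), with 7.61 and 8.01 against 7.31 and 7.24. Etv5 and Etv4, ETS factors downstream of Ret in the ureteric tip, were lower by 0.47 ± 0.13 and 0.61 ± 0.19 (SE). Etv5 had 7.73 and 7.57 against 8.04 and 8.19, and Etv4 8.79 and 8.55 against 9.07 and 9.49. In each of the 4 the genotypes did not overlap, as in 22.4% (knockout higher) and 17.2% (knockout lower) of all genes. Choosing them by their p in this same comparison favours such an order, so it adds no support. Sim1 was not well above background on any array.

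Of 12 genes reported elsewhere as targets of these factors, all were measured and none passed. Their differences were positive in 4 and negative in 8 (8839 and 7148 of all 15987 genes), with a median of −0.079. Ret, the receptor gene downstream of Gata3, had 6.74 and 6.65 in knockout and 7.01 and 6.96 in wild-type RNA. It was lower by 0.29 ± 0.11 (SE, limma adjusted p = 0.800). On the shared array the corrected Ret difference from pool 2 was only −0.053, against −0.27 in Cy5. Aqp2, the water channel of principal cells, had 12.33 and 12.57 against 11.93 and 11.50, higher by 0.73 ± 0.19 (SE, limma adjusted p = 0.800). Avpr2, the vasopressin receptor gene, had 7.86 and 7.89 against 8.14 and 8.03. Atp6v1b1, a proton pump subunit of intercalated cells, had 6.96 and 6.96 against 6.99 and 8.18, so that its difference of −0.63 rested on pool 2. Cldn4, a junction gene downstream of Grhl2, likewise had 7.53 and 7.43 in knockout, 7.36 in pool 1 and 8.86 in pool 2. Rab25 and Cdh1, which are also tied to Grhl2, differed by −0.0041 and 0.20.

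Marker lists of the duct itself gave further context, and none of their genes passed the test. Of 11 ureteric tip genes, 8 differences were negative, as were 7148 of all 15987 genes. The tip median was −0.29 against pools together, −0.38 against pool 1 and −0.27 against pool 2. The smallest unadjusted p values were those of Etv5, Slco4c1 (−0.55), Gfra1 (−0.66) and Etv4. The positive tip genes were Dusp6 (0.21), Sox9 (0.18) and Sox8 (0.17). Of 10 principal cell genes, 7 were positive, as were 8839 of all 15987 genes. The principal cell median was 0.41, and 0.35 and 0.45 against the pools. The smallest p values were those of Aqp2, Fxyd4 (0.64), Scnn1b (0.57) and Scnn1a (0.41). The 10 intercalated cell genes had a median of 0.071 and the 7 measured early nephron genes, a compartment in which Lhx1 is also expressed, 0.047. Against pool 1 the 9 genes had a median of 0.051 and against pool 2 of 0.27, next to 0.00094 and 0.048 for all genes.

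**Figure D5:**
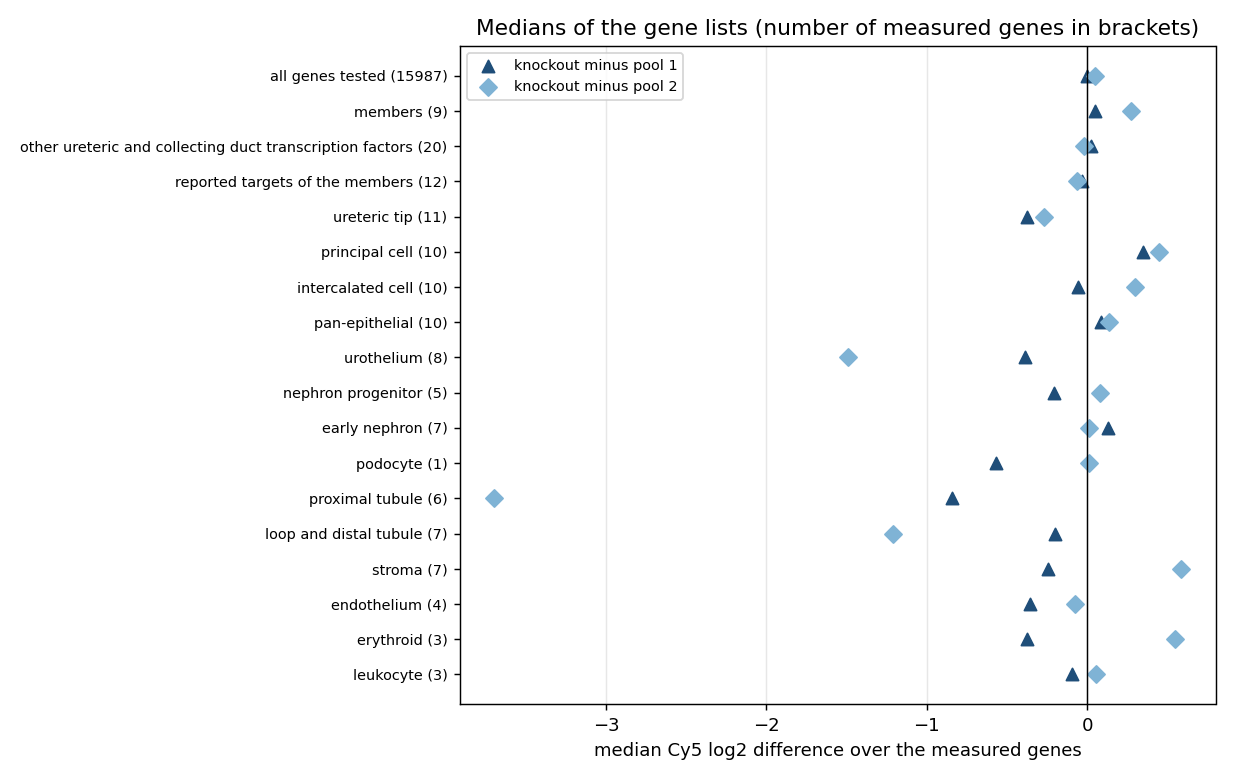
Median log2 Cy5 difference between knockout RNA and each wild-type pool (horizontal axis) over the measured genes of each list, with their number in brackets. The 9 genes have medians of 0.051 and 0.27, and the proximal tubule list differs most between the pools.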

How the data were processed

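Two-colour Agilent arrays of 4 samples were analysed, and all 4 share a scan time per the file headers. The scanner software was Agilent Feature Extraction 10.7.3.1 per the headers. The deposited files give each spot's median signal and local background as intensity in each dye, a processed intensity corrected by the scanner software, a log10 ratio of Cy5 over Cy3 processed signal, and quality flags of spots, per the file headers. On every array the deposited series table held the same log10 ratio (45018 of 45018 spots). No spot was saturated.

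Groups came from source names. For the Cy5 comparison, median signals were corrected with normexp (offset 50), and spots flagged as outliers were left out. Spot levels were then quantile normalized and averaged over the spots of a probe. A gene entered if both arrays of 1 genotype had it well above background, with the brightest probe for each. Symbols came from RefSeq (GRCm38.p6). Testing used limma 3.58.1 (R 4.3.3), two-sided, with Benjamini-Hochberg adjustment over 15987 genes. The script was tested on simulated data. Ratios within arrays used loess. A dark patch of WT_self replicate 1 (491 spots, none of a described gene) was left out. Separate animals behind replicate arrays are not given in the sources used here, so p-values measure only the spread between arrays, which may be technical, and their number limits the precision.

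The 9 genes, the lists and the tests were chosen with earlier results of these data known. All 9 genes are named, with up to 4 genes of the smallest unadjusted p from the lists of other factors, targets, tip and principal cells, and the 2 genes nearest in profile, of which 1 is not reported here. Hoxb7, Six2, Sim1, Nphs1, Rab25, Cdh1 and Cldn4 were added after their values were seen. So were the tip and principal cell genes named for going the other way. Alternatives were another offset, scaling, filter, probe rule, the replicate block, leaving out each array and the log ratio.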

Additional observations from a re-analysis of the deposited data

Results flagged for a closer look

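For Emx1 both knockout arrays moved 1 way against pool 1 and the other way against pool 2, as they did, in either order of the pools, for 28% of all genes. The knockout mean was 0.17 above pool 1 and −0.66 relative to pool 2 on the log2 scale. The difference between these values was not tested. In Cy3, which holds no knockout RNA, pool 2 also exceeded pool 1 for Emx1, by 0.47. With the processed signal the 3 values were 0.48, −1.23 and 1.39.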

How the results depend on the processing

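Over 14 alternatives in Cy5, Lhx1 stayed negative (−1.28 to −0.36) and Tfcp2l1 and Emx2 stayed positive (0.11 to 0.28 and 0.033 to 0.41). Leaving out 1 array at a time gave 0 to 2565 genes higher, 0 to 1899 lower and 0 to 4 of the 9 genes passing, all calls coming without WT_self replicate 1. The same omissions gave −0.013 to 0.25 for Pax2, −0.19 to 0.12 for Pax8, −0.66 to 0.17 for Emx1 and −0.015 to 0.67 for Elf5. The other alternatives called 0 genes, with 83 to 1415 at an unadjusted p under 0.05. The replicate block called 0 genes, with 603 at an unadjusted p under 0.05, and changed no call of the 9. Same-numbered samples had deviations correlated at 0.0386 across genes. With 2 arrays in each group this value cannot show whether the numbers pair the samples. Directions turned with the processed signal for Gata3 (−0.47), Grhl2 (−0.33) and Elf5 (−0.36), where the correction of KO_vs_WT replicate 1 rests on an empty Cy3 channel. They turned for Pax2 with 75th percentile scaling (−0.096), without KO_vs_WT replicate 1 and with the log ratio (−0.022). They also turned for Pax8 without KO_vs_WT replicate 2, and without WT_self replicate 2 for Pax8 (0.079), Emx1 and Elf5. With the processed signal the median over the 9 genes became −0.21 against pool 1 and −0.24 against pool 2, while that of all genes moved to −0.11 and −0.061. The median of pool 2 minus pool 1 became −0.34 in Cy5 and −0.37 in Cy3, from −0.22 and −0.20. The Cy3 medians here cover only the 8 genes well above background in Cy3. With 75th percentile scaling the median against pool 2 became 0.18, and those of pool 2 minus pool 1 became −0.41 and −0.12. On the shared array the median of 0.13 became 0.23 without dye correction and 0.30 with the deposited log ratio. The cause of these shifts was not tested. Pax2 was not well above background in Cy3, which limits its values there.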
